A study of Mus musculus with 4 samples.

Results

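The 10 genes described here code for proteins of calcium entry in T cells. Their products release or sense calcium of the endoplasmic reticulum, admit calcium across the plasma membrane, or hold the membrane potential for that flow. The genes are Orai1, Orai2, Orai3, Stim1, Stim2, Itpr1, Itpr2, Itpr3, Kcna3 and Kcnn4. They were chosen by symbol, each matched 1 Ensembl identifier, and all 10 of 10 were found among the 50600 genes of the deposited tables, of which 21764 are protein-coding. RNA-seq counts came from 4 libraries of T helper 17 (Th17) primary cells of C57BL/6NJ mice, for which the labels link a CD4+ T cell differentiation protocol and name no further treatment and no second condition. The assay is labelled total RNA-seq, while the linked library protocol is named for polyA+ RNA. The labels number them as biological replicates 1 to 4, give 1 donor entry for all, and leave sex uncollected and age unknown. The file headers carry a 24 hour mark, which the labels do not give. Nothing states which replicates came from separate mice or cultures, so every p-value below speaks only for these 4 libraries.

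In T cells, engagement of the antigen receptor activates phospholipase C, which makes inositol trisphosphate (IP3). IP3 opens the IP3 receptors in the endoplasmic reticulum, and the loss of stored calcium is sensed by the STIM proteins, which move to the plasma membrane and open the ORAI pores. This store-operated entry drives the phosphatase calcineurin and its NFAT targets, and potassium leaving through the channels encoded by Kcna3 and Kcnn4 keeps the membrane negative so that calcium continues to enter.

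Library totals ran from 19332509 to 48558772 counted read pairs, so that a gene with 1 kb of exon and 3 counts stood at 0.206 to 0.518 TPM, depending on the library. TPM is the length-corrected share of a gene in its library, computed here from the deposited counts and merged exon lengths. Of 18 pan T cell and Th17 markers 18 lay above 1 TPM, with summed levels from 6234 to 6296 TPM. Of the 9 Th17 markers, whose sum ran from 1962 to 2124 TPM, 2 varied between libraries by the deviance test described below: Il17f from 391 to 557 TPM (edgeR adjusted p = 2.14e-06) and Ahr from 21.04 to 35.8 TPM (edgeR adjusted p = 8.50e-05). Of 37 markers of 8 other cell types 5 were called above 1 TPM (Cd8b1, Cd68, Kit, Epcam and Pecam1), 29 were called below it and 3 had no call. Over all protein-coding genes, the shares called above and below were 45.9% and 51.5%. The summed level of the 37 ran from 37.9 to 40.3 TPM, and from 2.43 to 5.37 TPM without the 5 called above. No library held a count for 16 of the 37, nor for 7704 of all 21764 protein-coding genes. Markers without a count included Lyz2, Csf1r, S100a8, Cpa3, Fcer1a and Pf4. Other markers in these lists were detected: Cd68 (macrophage and dendritic) averaged 6.12 TPM and Kit (mast and basophil) 1.77 TPM, and 1 platelet marker with no call averaged 0.930 TPM. Cd8b1 (CD8 T and NK) averaged 14.4 TPM, and the higher of Epcam and Pecam1 (stromal and epithelial) 11.2 TPM. The Y-linked gene Ddx3y stood at 77.8, 58.9, 0.240 and 0.0925 TPM in replicates 1 to 4, so replicates 1 and 2 differ from replicates 3 and 4 in Y-linked RNA and the 4 libraries are not repeats of 1 RNA sample. The labels do not mention this difference, and its part in the values below was not tested.

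All 10 genes were expressed, with the potassium channel genes and Orai1 highest. Kcna3, Orai1 and Kcnn4 averaged 100.5 ± 2.03, 87.5 ± 1.35 and 77.2 ± 2.88 TPM (SD, n = 4). Stim1 and Stim2 followed, then Itpr1 and Itpr3, then Orai3, Orai2 and Itpr2. The ranges over the 4 libraries overlapped between Stim1 and Stim2 and between Itpr1 and Itpr3, and all other neighbours in this order had ranges that lay apart. The order holds for merged exon lengths. With the longest coding transcript as the gene's length, Kcnn4 (144 TPM) stood above Orai1 (77.4 TPM) and Orai1 above Kcna3 (72.7 TPM), and Itpr1 (26.7 TPM) stood above Stim2 (22.01 TPM). Against a fixed level of 1 TPM, 10 of 10 members lay above it by edgeR's quasi-likelihood test with Benjamini-Hochberg adjustment over all protein-coding genes, where 45.9% of these genes did and 51.5% lay below. DESeq2's Wald test also placed 10 of 10 above, where it placed 70.8% of the 14060 genes with a count. The adjusted p of each was smaller than the arithmetic can hold; with the fit limited to genes averaging 10 counts or more the largest of the 10 was 3.64e-29, for Orai2. These p-values rest on each gene's own spread moderated towards a trend shared across genes, so they borrow from other genes. With limma's moderated t test the largest adjusted p of the 10 was 6.62e-06, for Orai2. Against 10 TPM, 8 members lay above, where 35.2% of protein-coding genes did, and Orai2 and Itpr2 lay below (edgeR adjusted p = 5.51e-06 and 8.91e-42), as did 63.4% of protein-coding genes. The members' median was 24.6 TPM, beside 0.411 TPM over all protein-coding genes. In bulk RNA, fewer cells with a transcript and less of it per cell cannot be told apart.

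**Figure D1:**
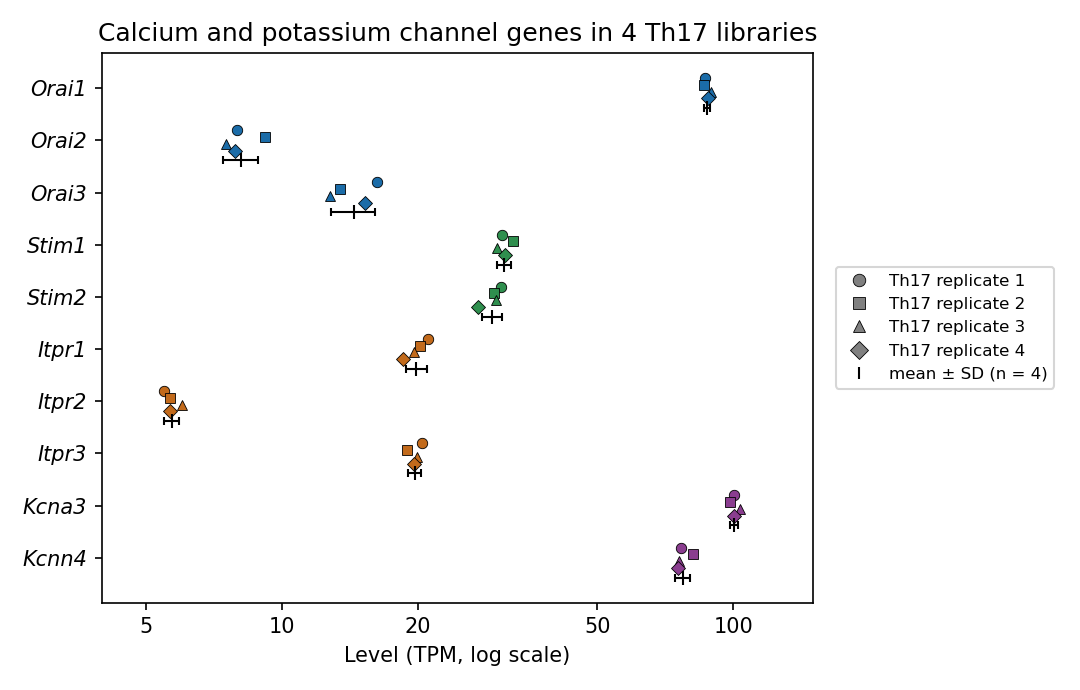
TPM of each member (rows, log axis) in Th17 replicates 1 to 4 (symbols), with the mean ± SD of the 4 libraries as a black bar below each row. Kcna3, Orai1 and Kcnn4 lie between 75.3 and 103 TPM and the other 7 genes below 33 TPM.

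DNA before the start sites of the ORAI and potassium channel genes is shown for 2 reasons. The 3 pore genes differ in level, and both potassium channel genes stand near Orai1 by merged exon length. RefSeq start-site windows of build GRCm38.p6, the assembly called mm10, were matched for 9 of the 10 members. The bases from 250 to 61 before the start are printed 5′ to 3′ on the strand of the gene, with CG dinucleotides in capitals. They lie at chr5:123014824-123015013 (plus strand) for Orai1, chr5:136170717-136170906 (minus) for Orai2, chr7:127769565-127769754 (plus) for Orai3, chr7:24370013-24370202 (plus) for Kcnn4 and chr3:107035912-107036101 (plus) for Kcna3.
Orai1: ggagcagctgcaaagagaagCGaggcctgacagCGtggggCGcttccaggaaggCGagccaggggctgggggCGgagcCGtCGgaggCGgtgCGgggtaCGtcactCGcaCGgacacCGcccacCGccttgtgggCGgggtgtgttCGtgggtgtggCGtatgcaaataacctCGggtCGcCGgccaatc
Orai2: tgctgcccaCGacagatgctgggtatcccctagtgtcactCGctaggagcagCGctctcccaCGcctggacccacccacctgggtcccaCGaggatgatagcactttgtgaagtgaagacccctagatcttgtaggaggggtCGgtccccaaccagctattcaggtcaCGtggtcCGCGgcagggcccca
Orai3: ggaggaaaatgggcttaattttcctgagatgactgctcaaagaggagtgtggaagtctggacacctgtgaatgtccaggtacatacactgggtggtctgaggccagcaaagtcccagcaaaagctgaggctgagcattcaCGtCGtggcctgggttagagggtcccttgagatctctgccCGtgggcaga
Kcnn4: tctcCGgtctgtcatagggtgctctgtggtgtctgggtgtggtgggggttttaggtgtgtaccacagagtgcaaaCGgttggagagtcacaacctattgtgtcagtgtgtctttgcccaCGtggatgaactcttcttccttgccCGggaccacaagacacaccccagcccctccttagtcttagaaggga
Kcna3: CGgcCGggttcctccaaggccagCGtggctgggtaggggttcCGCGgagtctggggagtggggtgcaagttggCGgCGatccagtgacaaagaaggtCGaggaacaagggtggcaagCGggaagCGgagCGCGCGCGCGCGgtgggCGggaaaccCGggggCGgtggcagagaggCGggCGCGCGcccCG

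The windows differed in CG content, which is given as a description with no test. Kcna3 held 24 CG dinucleotides and Orai1 20. Kcnn4, at a level close to theirs by merged exon length, held 4, which is the median over 32851 such windows of the table. With the longest coding transcript as length Kcnn4 stood at 144 TPM, against 77.4 TPM for Orai1 and 72.7 TPM for Kcna3. Orai2 held 9 and Orai3 3. In the 4 matched windows not printed, Stim1 held 23, Itpr3 22, Stim2 20 and Itpr2 15. A window with at least 24 was found among 4.58% of all windows and one with at least 20 among 8.16%. The GC box core GGGCGG, searched on both strands, was present 3 times before Orai1 and 2 times before Kcna3 and not found before the other three, against 22.8% of all windows that hold it. The NFAT core GGAAA occurred 2 times before Orai3, 1 time before Kcna3 and in none of the others, against 46.9% of all windows, and neither TATAAA nor the AP-1 element TGANTCA was found in any of the 5. These are matches of letters, not binding sites.

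The ORAI genes code for the pore of the store-operated channel. Orai1, whose loss abolishes most store-operated entry in human T cells, was at 86.7, 86.1, 89.1 and 87.9 TPM in replicates 1 to 4 (mm10 chromosome 5, 123015074 to 123030456, ENSMUSG00000049686). All 4 libraries lay between 86.1 and 89.1 TPM. Orai2, which joins Orai1 in mixed channels and dampens entry in mouse T cells, was at 7.96, 9.21, 7.54 and 7.88 TPM (chromosome 5, 136147459 to 136170713, ENSMUSG00000039747). Orai3, the third pore gene, was at 16.3, 13.5, 12.8 and 15.3 TPM (chromosome 7, 127769815 to 127775150, ENSMUSG00000043964). No library of Orai1 came near the others, and the ranges of Orai2 and Orai3 did not overlap.

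Within each library, Orai1 gave 79.5 ± 1.39% of the summed TPM of the 3 genes, Orai3 13.1 ± 1.35% and Orai2 7.40 ± 0.717% (SD, n = 4). Orai1 exceeded Orai2 10.8 ± 1.05-fold and Orai3 6.11 ± 0.722-fold, in 4 of 4 libraries each. Orai2 was at 0.569 ± 0.0873 of the level of Orai3, lower in 4 of 4. For each of these, as for every difference between members that had the same sign in all libraries, the exact two-sided sign-flip permutation test gave p = 0.125, the smallest that 4 libraries allow, so none can pass 0.05. Adjusted over the 11 differences compared it was 0.138. With the longest coding transcript as the gene's length, in place of merged exons, Orai2 was at 0.867 ± 0.133 of Orai3 and higher in 1 of 4 libraries, so the order of these 2 depends on the length used.

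The STIM genes code for the calcium sensors of the endoplasmic reticulum. Stim1, the sensor that responds to strong depletion of the store, was at 30.7, 32.6, 29.9 and 31.1 TPM in replicates 1 to 4 (chromosome 7, 102267806 to 102437319, ENSMUSG00000030987). Stim2, which responds to smaller losses and sustains entry, was at 30.6, 29.6, 29.7 and 27.1 TPM (chromosome 5, 53998499 to 54121057, ENSMUSG00000039156). The 2 ranges overlapped. Within a library Stim1 was 1.06 ± 0.0710 times Stim2 and higher in 4 of 4, with log2 differences of 0.01 in replicates 1 and 3, 0.13 in replicate 2 and 0.19 in replicate 4.

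This near equality depends on gene length. The merged exons of Stim1 span 10371 bases over 9 annotated transcripts, of which the longest coding one has 4362 bases, while the figures for Stim2 are 5133 and 4934 bases. With the longest coding transcript as length, Stim1 stood at 53.4 ± 1.89 TPM and Stim2 at 22.01 ± 1.10 TPM, and Stim1 was 2.43 ± 0.162 times Stim2 in 4 of 4 libraries. That alternative was chosen after the data were seen, and it moved the median of 10194 protein-coding genes at 1 TPM or more by -0.16 on the log2 scale.

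The ITPR genes code for the IP3 receptors that release calcium from the store. Itpr1, best known from Purkinje neurons, was at 21.1, 20.2, 19.7 and 18.6 TPM in replicates 1 to 4 (chromosome 6, 108213096 to 108551109, ENSMUSG00000030102). Itpr3 was at 20.5, 18.9, 19.9 and 19.6 TPM (chromosome 17, 27057304 to 27122223, ENSMUSG00000042644), a range that overlapped that of Itpr1. Itpr2, the type with the highest affinity for IP3, was at 5.49, 5.66, 6.01 and 5.67 TPM (chromosome 6, 146108299 to 146502223, ENSMUSG00000030287), below both others in every library.

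Itpr1 made up 43.9 ± 1.35%, Itpr2 12.6 ± 0.664% and Itpr3 43.5 ± 1.03% of the summed TPM of the receptor genes. Itpr1 was 3.49 ± 0.273 times Itpr2, and Itpr2 0.290 ± 0.0154 of Itpr3, each with the same sign in 4 of 4 libraries. Itpr1 was 1.01 ± 0.0532 times Itpr3, higher in 2 libraries and lower in 2, with a log2 difference of 0.01 ± 0.07 (exact sign-flip permutation p = 0.750). With the longest coding transcript as length, Itpr1 was 1.87 ± 0.0988 times Itpr3 in 4 of 4 libraries, and took 57.8 ± 1.35% of the receptor sum against 30.9 ± 0.950% for Itpr3. Merged exons of Itpr1 span 18319 bases and its longest coding transcript 9870, whereas for Itpr3 both are 8990 bases.

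By merged exon length the potassium channel genes stood near the Orai1 level. Kcnn4 codes for the calcium-activated channel that calmodulin opens, and was at 76.5, 81.5, 75.6 and 75.3 TPM in replicates 1 to 4 (chromosome 7, 24370263 to 24386690, ENSMUSG00000054342). Kcna3 codes for the voltage-gated channel of T cells and was at 100.2, 98.5, 103 and 100.1 TPM (chromosome 3, 107036169 to 107038070, ENSMUSG00000047959, 1 exon). Kcnn4 was below Kcna3 in 4 of 4 libraries, at 0.769 ± 0.0413 of its level. The direction turned with the longest coding transcript as length: Kcnn4 stood at 144 ± 5.30 TPM and Kcna3 at 72.7 ± 1.49 TPM, and Kcnn4 was 1.98 ± 0.106 times Kcna3 in 4 of 4 libraries. The merged exons of Kcnn4 span 5115 bases and its longest coding transcript 1990, while Kcna3 has 1902 bases by either measure.

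**Figure D2:**
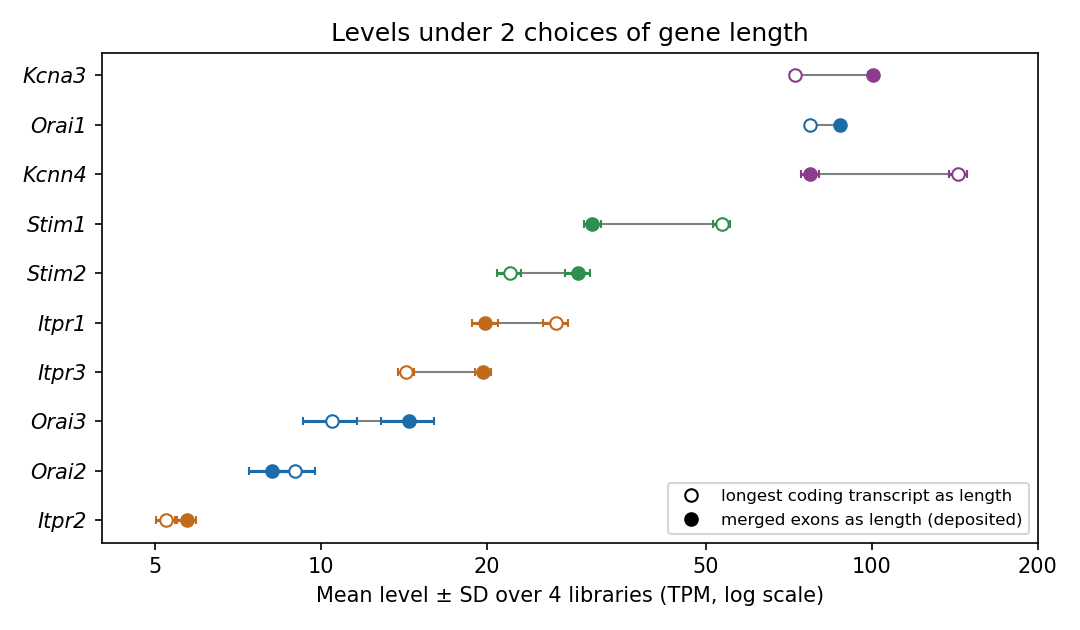
Mean TPM ± SD over the 4 libraries (log axis) with the longest coding transcript (open circles) and with merged exons (filled circles) as the gene's length. Kcnn4, Stim1 and Itpr1 move up and Kcna3, Stim2, Itpr3 and Orai3 move down, so that Kcnn4 passes Orai1 and Kcna3, Orai1 passes Kcna3, and Itpr1 passes Stim2. Kcna3, Itpr3 and Orai3 have the same length by either measure and move only through the TPM denominator.

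Both potassium channel genes led their class. Among 77 genes of pore-forming potassium channel subunits, Kcna3 ranked 1 and Kcnn4 2 by merged exon length. With the longest coding transcript as length Kcnn4 (144 TPM) stood above Kcna3 (72.7 TPM). Together they held 81.0 ± 0.806% of the summed TPM of the class (87.2 ± 0.608% with the longest coding transcripts). Of the 75 others, 4 were called above 1 TPM, 67 below and 4 neither way. Of all protein-coding genes, 45.9% were called above and 51.5% below. In all libraries 41 of the 75 lacked a count, as did 7704 of the 21764 protein-coding genes. Kcnq5 was highest of the 75 at 21.9 ± 1.06 TPM, followed by the two-pore channel gene Kcnk5 at 8.23 ± 0.806 TPM. Kcnj14 came next at 2.27 ± 0.449 TPM, uncertain because 30.8% of its 50-base words occur in other genes. Kcnv2 had no count; its upper limit, set by 3 counts summed over the libraries, was 0.0137 TPM and covers counting error only, as do the limits given below. Against 2 TPM 2 of the 75 lay above, and against 0.5 TPM 9 did. Shares of all protein-coding genes at these levels are not reported here.

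Summed over each family, the order was pores, sensors, release channels. The ORAI genes summed to 110.1 ± 1.11 TPM, the STIM genes to 60.4 ± 1.72 TPM and the ITPR genes to 45.3 ± 1.35 TPM. The ORAI sum was 1.83 ± 0.0642 times the STIM sum and 2.43 ± 0.0750 times the ITPR sum, and the STIM sum was 1.33 ± 0.0382 times the ITPR sum, each in 4 of 4 libraries. The order was the same with the longest coding transcripts, where these ratios were 1.28 ± 0.0401, 2.10 ± 0.0758 and 1.64 ± 0.0595. As shares of counted reads, with no correction for length, it turned round, since longer genes collect more reads.

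**Figure D3:**
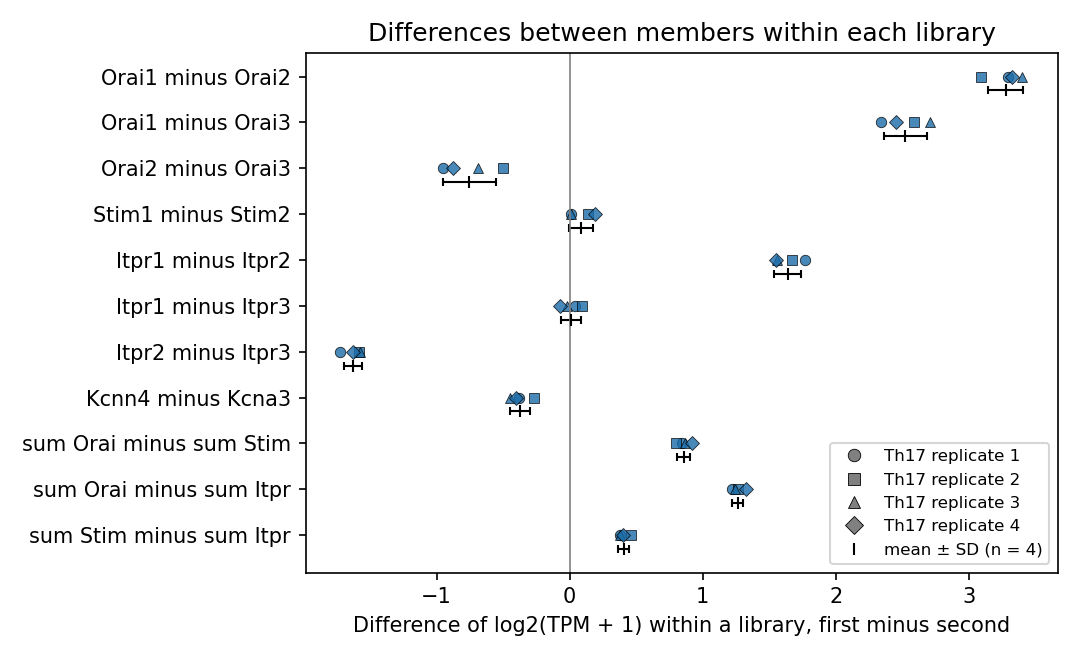
Difference of log2(TPM + 1) between members within each library, first gene minus second, in Th17 replicates 1 to 4 (symbols), with the mean ± SD as a black bar below each row. Stim1 minus Stim2 and Itpr1 minus Itpr3 lie within 0.2 of 0. Itpr1 minus Itpr3 has libraries on both sides of 0, and every other row has all 4 libraries on one side.

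Differences between libraries were small. None of the 10 genes varied beyond the dispersion of genes of like abundance, in a deviance test with the trended dispersion of edgeR and adjustment over all genes tested, where 0.501% of 11171 genes did. Before adjustment 0 of 10 passed 0.05 as well, the smallest value being 0.296 for Itpr1, and 5.28% of all genes tested did. With such shares a count of 0 of 10 does not set the members apart. No member passed with edgeR's common dispersion either, where 2.23% of genes did. The SD was 1.54% of the mean for Orai1 and 2.02% for Kcna3, below the 2.29% and 2.35% that counting alone would give. At the other end it was 11.1% for Orai3 and 8.99% for Orai2, where counting alone gives 5.91% and 4.56%. The median of the members was 3.79%, beside 4.97% over 6913 protein-coding genes between 5 and 110 TPM. Orai3 lay above the upper quartile of all genes tested, 10.2%. The summed level of the 10 genes ran from 389 to 396 TPM.

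**Figure D4:**
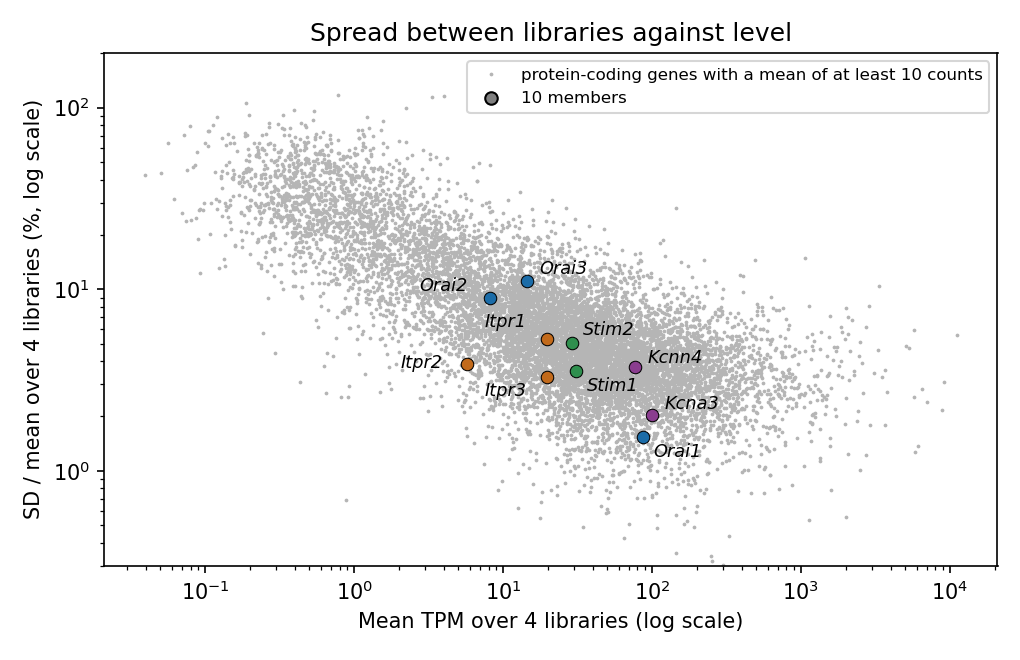
SD over the 4 libraries as a percent of the mean (log axis) against mean TPM (log axis) for 11171 protein-coding genes averaging 10 counts or more (grey) and the 10 members (coloured). Orai1 and Kcna3 lie at 1.54% and 2.02%, and Orai2 and Orai3 at 8.99% and 11.1%.

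Reads shared with other genes touched the members little. At most 1.51% of the 50-base words of a member's annotated transcripts occurred in another gene, for Itpr3, followed by 1.07% for Itpr1. On the opposite strand Itpr3os overlaps 2.59% of the exon bases of Itpr3, and 2 antisense genes overlap 1.58% of those of Itpr1, but counting was by strand.

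The lists below are read beside the 45.9% of all protein-coding genes above 1 TPM, with no test of a list. Of 10 entry regulators 7 lay above 1 TPM and 3 below, led by Surf4 at 230.4 ± 6.33 TPM, the membrane tether gene Esyt1 at 166 ± 3.19 TPM and Saraf, which slows entry once stores refill, at 110 ± 4.00 TPM. Tmem110, whose product promotes STIM1 activation, was at 13.5 ± 1.04 TPM and Cracr2a, whose product binds ORAI1 in human T cells, at 3.91 ± 0.317 TPM, while Tmem178 had no count (up to 0.0412 TPM). Sept2, also among the 7, is uncertain with 41.0% of its words in other genes. Of 10 genes of IP3 production and metabolism 9 lay above and 1 below. Impa1, which recycles inositol, was at 73.6 ± 2.96 TPM, and Plcg1, the phospholipase C gamma gene, at 40.0 ± 1.34 TPM. Itpka, an IP3 kinase, was the lowest at 0.414 ± 0.175 TPM. Of 9 IP3 receptor partners 8 lay above and 1 below, with Lrmp at 111 ± 4.02 TPM, Ahcyl1, whose product competes with IP3 for the receptor, at 86.8 ± 2.44 TPM, Itpripl1 at 46.2 ± 1.54 TPM and Mrvi1 at 0.0327 ± 0.0259 TPM.

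Genes for other routes of calcium gave counts of 0 of 3, 0 of 10 and 5 of 31 above 1 TPM. All 3 ryanodine receptor genes lay below 1 TPM: Ryr1 was at 0.0917 ± 0.0112 TPM and Ryr3 at 0.00181 ± 0.00362 TPM, and Ryr2 had no count (up to 0.00415 TPM). All 10 genes of voltage-gated calcium channel pores lay below 1 TPM by edgeR's test, with Cacna1a at 0.864 ± 0.167 TPM, Cacna1s at 0.118 ± 0.0707 TPM, Cacna1g at 0.0430 ± 0.0418 TPM and no count of Cacna1h (up to 0.00716 TPM); DESeq2's Wald test did not place Cacna1a below. Of 31 TRP, P2X and Piezo genes 5 lay above, 25 below and 1 had no call. Trpc2, called below, is uncertain with 98.3% of its words in other genes. Piezo1, a mechanosensitive channel, was at 58.2 ± 2.74 TPM, the magnesium and calcium channel gene Trpm7 at 41.1 ± 1.05 TPM and Trpv2 at 17.3 ± 1.09 TPM, while Trpv6 had no count (up to 0.0177 TPM).

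Of 12 pump and exchanger genes 5 lay above 1 TPM and 7 below, a share of 41.7% that is close to that of all protein-coding genes. The pumps of the endoplasmic reticulum Atp2a2 and Atp2a3 were at 426 ± 22.6 and 113 ± 5.12 TPM, the secretory pathway pump gene Atp2c1 at 33.0 ± 0.774 TPM, and the exchanger gene Slc8a3 had no count (up to 0.0131 TPM). All 12 genes of mitochondrial calcium handling lay above 1 TPM, with Vdac1 at 438 ± 14.2 TPM, Vdac2 at 241 ± 7.03 TPM and Smdt1, a subunit of the uniporter, at 178 ± 15.7 TPM, down to Micu3, a uniporter regulator gene, at 3.89 ± 0.153 TPM. Of 20 calmodulin and calcineurin genes 15 lay above and 5 below. Calm2 and Calm3, which code for calmodulin, were at 517 ± 18.5 and 263 ± 6.77 TPM, and Rcan2 had no count (up to 0.0187 TPM). Among calcineurin subunits, Ppp3r1, the regulatory one, was at 169 ± 2.92 TPM, and the catalytic genes Ppp3ca, Ppp3cb and Ppp3cc were at 3.35 ± 0.211, 49.0 ± 1.83 and 39.6 ± 4.53 TPM.

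Of 13 potassium channel regulators 7 lay above 1 TPM and 6 below, a share of 53.8% that is also close to that of all protein-coding genes. Nme2, whose product activates the Kcnn4 channel, was at 178 ± 9.09 TPM, uncertain with 47.0% of its words in other genes, as is Phpt1, also among the 7, at 17.5 ± 2.69 TPM with 34.5%. Kcnab2, a beta subunit of voltage-gated channels, was at 159 ± 6.76 TPM and Trim27, which inhibits the Kcnn4 channel, at 119 ± 3.07 TPM, whereas Kcne4 had no count (up to 0.0263 TPM). For each of the lists above, DESeq2's Wald test placed the same number of genes above 1 TPM as edgeR's did, and genes with no count get no p from it.

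**Figure D5:**
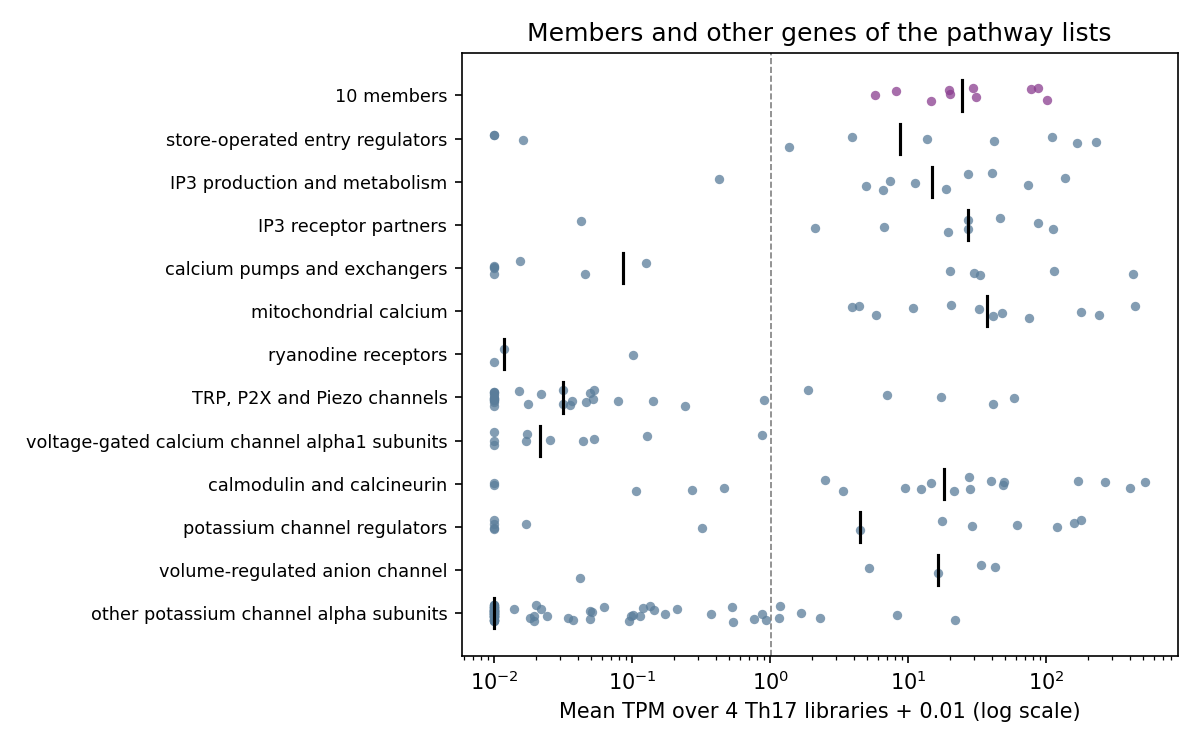
Mean TPM over the 4 libraries plus 0.01 (log axis) of the 10 members and of the genes in 12 pathway lists, with each list's median as a black bar and 1 TPM as a dashed line. All 10 members lie right of the line, as do all 12 mitochondrial calcium genes, and no ryanodine receptor or voltage-gated calcium channel gene does.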

How the data were processed

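Gene expression was measured in 4 Th17 libraries. The deposited tables hold counts of read pairs per gene, made by the authors with featureCounts 1.4.6-p4, reverse-stranded and with both ends mapped, on GENCODE M13 exons (mm10), per the file headers. No source used here names the aligner version. The deposited tables also give merged exon lengths, in bases. The recorded options hold no switch for counting multi-mapping reads.

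Symbols came from GENCODE M21 by Ensembl identifier, which matched 50376 of 50600 genes. TPM was computed over all genes. Levels were tested with the quasi-likelihood F test of edgeR (4.0.16, under R 4.3.3): each gene's intercept was tested, two-sided and adjusted at 0.05, after offsetting by the log of its count at 1 TPM. Variation was tested for genes averaging 10 counts or more, with the negative binomial deviance and TMM normalization. Differences between members used log2(TPM + 1) and an exact sign-flip permutation test. DESeq2 1.42.0 and limma 3.58.1 were alternatives. Both tests were tested on simulated data.

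The members and lists were chosen with earlier results of these data known. Named were all members, the 3 highest and the lowest gene of each list (1 where several had no count), the nearest genes in level to 3 members, markers and Ddx3y. Outside this rule, Tmem110, Cracr2a, Sept2, Phpt1, Lrrc8a, the 4 calcineurin genes, Trpc2, Kcnj13, Cracr2b, Kcna6 and Kcnj3 were picked with their values known. Some genes that this rule names are not reported here. A level is called uncertain where at least 25% of 50-base words occur in other genes. This holds also for list genes called below 1 TPM, among them Trpc2 (98.3%), Kcnj13 (42.1%), Cracr2b (39.7%), Kcna6 (38.8%) and Kcnj3 (29.3%).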

Additional observations from a re-analysis of the deposited data

Results flagged for a closer look

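In 58 values over the 4 libraries (the members, the named genes of the lists with a count, and the differences between members), 3 had 1 library far from the other 3 relative to the range, where chance flags about 1 in 20. None of the 3 was a member or a difference between members. Vdac2 averaged 241 TPM, with 230.5 TPM in replicate 2 against 244 to 245 TPM in the others. Ryr3 averaged 0.00181 TPM, with 2 counts, all in replicate 4, and Lrrc8e averaged 0.0313 TPM, with 3 counts, all in replicate 2. A gene with counts in 1 library alone is always flagged, so the rate of 1 in 20 does not apply to Ryr3 and Lrrc8e. Replicate 2 is the library with the fewest counts.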

How the results depend on the processing

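The count of members above the fixed level was 10 under every alternative run except a level of 10 TPM, which gave 8. The levels tried in place of 1 TPM were 0.5, 2, 5 and 10 TPM. Of all protein-coding genes, 45.9% lay above 1 TPM, 39.6% above 5 TPM and 35.2% above 10 TPM. Their shares at 0.5 and 2 TPM are not reported here. The count of members that varied was 0 under each alternative. Differences between members on the log2 scale kept their sign with other pseudocounts and with protein-coding genes as the TPM denominator. Without a length correction 5 reversed: Orai2 minus Orai3 (0.63), Kcnn4 minus Kcna3 (1.03), the ORAI sum minus the STIM sum (-0.74) and minus the ITPR sum (-1.14), and the STIM sum minus the ITPR sum (-0.40), by construction, since longer genes collect more reads. With the longest coding transcript as length, chosen after the data were seen, Kcnn4 minus Kcna3 reversed to 0.97. Leaving out each library, Itpr1 minus Itpr3 ran from -0.0178 to 0.0382, negative without replicate 2. Against 0.5 TPM, 1 voltage-gated calcium channel gene and 9 of the other potassium channel genes lay above, against 0 and 4 at 1 TPM, and against 2 TPM 2 of those potassium channel genes did. Levels of all 10 members moved by more than 1 SD with the longest coding transcript, from 0.723 to 1.86 times. Orai3, Itpr3 and Kcna3 have the same length by either measure. Their move to 0.723 times comes only from the TPM denominator, in which the lengths of other genes changed. No paired analysis was possible because there is 1 group. Depth limits the genes without a count to the upper limits given. Isoforms cannot be separated in gene counts, so which length fits each gene was not tested.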

Other observations

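The LRRC8 subunits of the volume-regulated anion channel let chloride and small osmolytes leave a swelling cell. By edgeR's test 4 of the 5 LRRC8 genes lay above 1 TPM and 1 below, beside 45.9% and 51.5% of all protein-coding genes. Lrrc8c was at 42.2 ± 1.59 TPM, Lrrc8d at 33.3 ± 0.435 TPM, Lrrc8b at 16.2 ± 0.475 TPM and Lrrc8e at 0.0313 ± 0.0627 TPM (SD, n = 4). Lrrc8a, the other gene called above, was at 5.18 ± 0.521 TPM and is uncertain, with 66.2% of its 50-base words in other genes.

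The protein-coding genes whose levels over the 4 libraries were closest to 3 of the members, by the largest absolute difference in log2(TPM + 1) in any library, included Msl3 and Rftn1 for Orai1 (0.03 to 0.04), Aspscr1, Gga3 and Alg12 for Stim1 (0.02 to 0.03) and Rragc, Stk11 and Dusp5 for Kcnn4 (0.04 each).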
